A study of Mus musculus with 2 samples.

Results

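The genes described here build, branch, elongate, cap, sever and recycle actin filaments, and they were read in mouse T cell blasts. The list holds 50 gene symbols, and a gene counted as measured when at least 1 probe set was annotated to its symbol alone. By that rule 45 of the 50 genes were measured, by 108 probe sets, out of 18193 named genes on the array. The other 5, Arpc1b, Arpc3, Actr2, Cyfip1 and Fmnl3, were not analysed here, Arpc1b because its probe sets carry a second symbol as well. The list was sorted into subunits of the Arp2/3 complex (6 measured), the WASP and WAVE proteins with their partners (14), formins (5) and factors of filament turnover (20).

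The cells were 5cc7 T cells of the mouse, which bear a receptor for a fragment of moth cytochrome c. The labels record stimulation in vitro with that fragment, called MCC, and preparation of RNA 5 days later. Strain, age, the antigen-presenting cells and any sorting are not given in the labels. There was 1 group of 2 arrays, set 1 and set 2, of the Affymetrix mouse 430 2.0 design, with no second condition. Whether the arrays came from separate cultures is not stated, their spread may be technical, and no comparison between conditions could be tested.

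Cells keep actin as a pool of monomers and as filaments, and the exchange between these is what moves and shapes the cell. The Arp2/3 complex starts new branches on the side of a filament, and it works once a WASP or WAVE protein has activated it. Formins instead start and elongate unbranched filaments. Cofilins, coronins, capping proteins and monomer-binding proteins cap, cut and recycle what has been built. In T cells this machinery underlies crawling and the ring of actin that forms at the immune synapse, where the T cell faces an antigen-presenting cell.

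Background was set by a bound on each array. A probe set passed if it was brighter than the bound on set 1 and on set 2 alike, and a gene passed through any 1 of its probe sets. The bound was the 95th percentile of 38 probe sets for 27 genes of liver, eye, pancreas and kidney, and it was 54.44 on set 1 and 57.03 on set 2. Of the 45 measured actin regulators 38 were above background, where 47.1% of all named genes were. By group the counts were 6 of 6 Arp2/3 subunits, 11 of 14 WASP and WAVE genes, 3 of 5 formins and 18 of 20 turnover genes. The 7 genes not above background were Wasf1, Wasf3, Cttn, Diaph3, Fmnl2, Pfn2 and Enah. Of the 108 probe sets 76 were above background, beside 41.5% of all probe sets with 1 gene symbol. These shares are descriptions of 2 arrays, and no test was made of them.

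A gene with more probe sets has more chances to pass the bound, so the count was also read by the number of probe sets. Among genes with 1 probe set 11 of 14 members were above background, against 31.7% of all named genes with 1. With 2 probe sets the count was 14 of 15, against 55.0%, and with 3 it was 5 of 6, against 66.9%. With 4 or more it was 8 of 10, against 76.2%. The share of members was above that of all genes in each class. The gap was smallest with 4 or more probe sets, where 8 of 10 was near the share of all genes. With 3 probe sets the class held only 6 members, so its share is coarse.

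**Figure D1:**
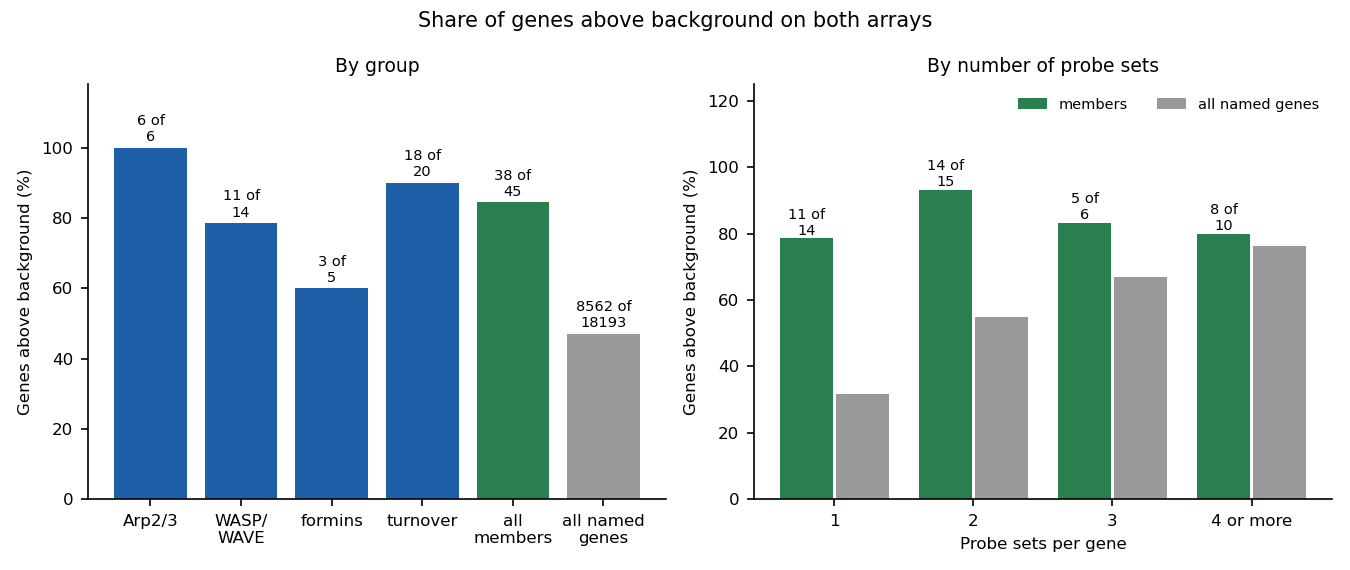
Share of genes above background on both arrays, in percent, for each group of actin regulators and for all named genes (left), and by the number of probe sets per gene for members and all named genes (right). Counts stand over the bars. All 6 Arp2/3 subunits and 18 of 20 turnover genes were above background, and 3 of 5 formins were.

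Intensity is given as deposited, on a linear scale. Probe sequence influences it, so 2 genes cannot be ranked by abundance from it, and the brightest probe set was taken as the level of a gene. With that limit, the median level of the 6 Arp2/3 subunits was 1253 on set 1 and 1249.8 on set 2. The WASP and WAVE group had medians of 513 and 555, the formins 65.4 and 61.1, and the turnover group 991 and 958. Over all named genes the medians were 53.0 and 55.4. The group medians depend on the probe sets used and on which genes these leave measured. Without those whose names end in _x_at, _s_at or _a_at, the mean of the arrays had a median of 201 for formins and 488 for turnover. With all it was 63.25 and 975. The formin median moved because Diaph3 was then not measured, and the levels of the other 4 formins did not change. With the median over the probe sets of a gene, the median level was 772 for Arp2/3, against 1252 with the brightest. A level above 1000 was measured for 3 of 6 Arp2/3 subunits, 5 of 14 WASP and WAVE genes, 0 of 5 formins and 10 of 20 turnover genes, and for 3.77% of all named genes.

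**Figure D2:**
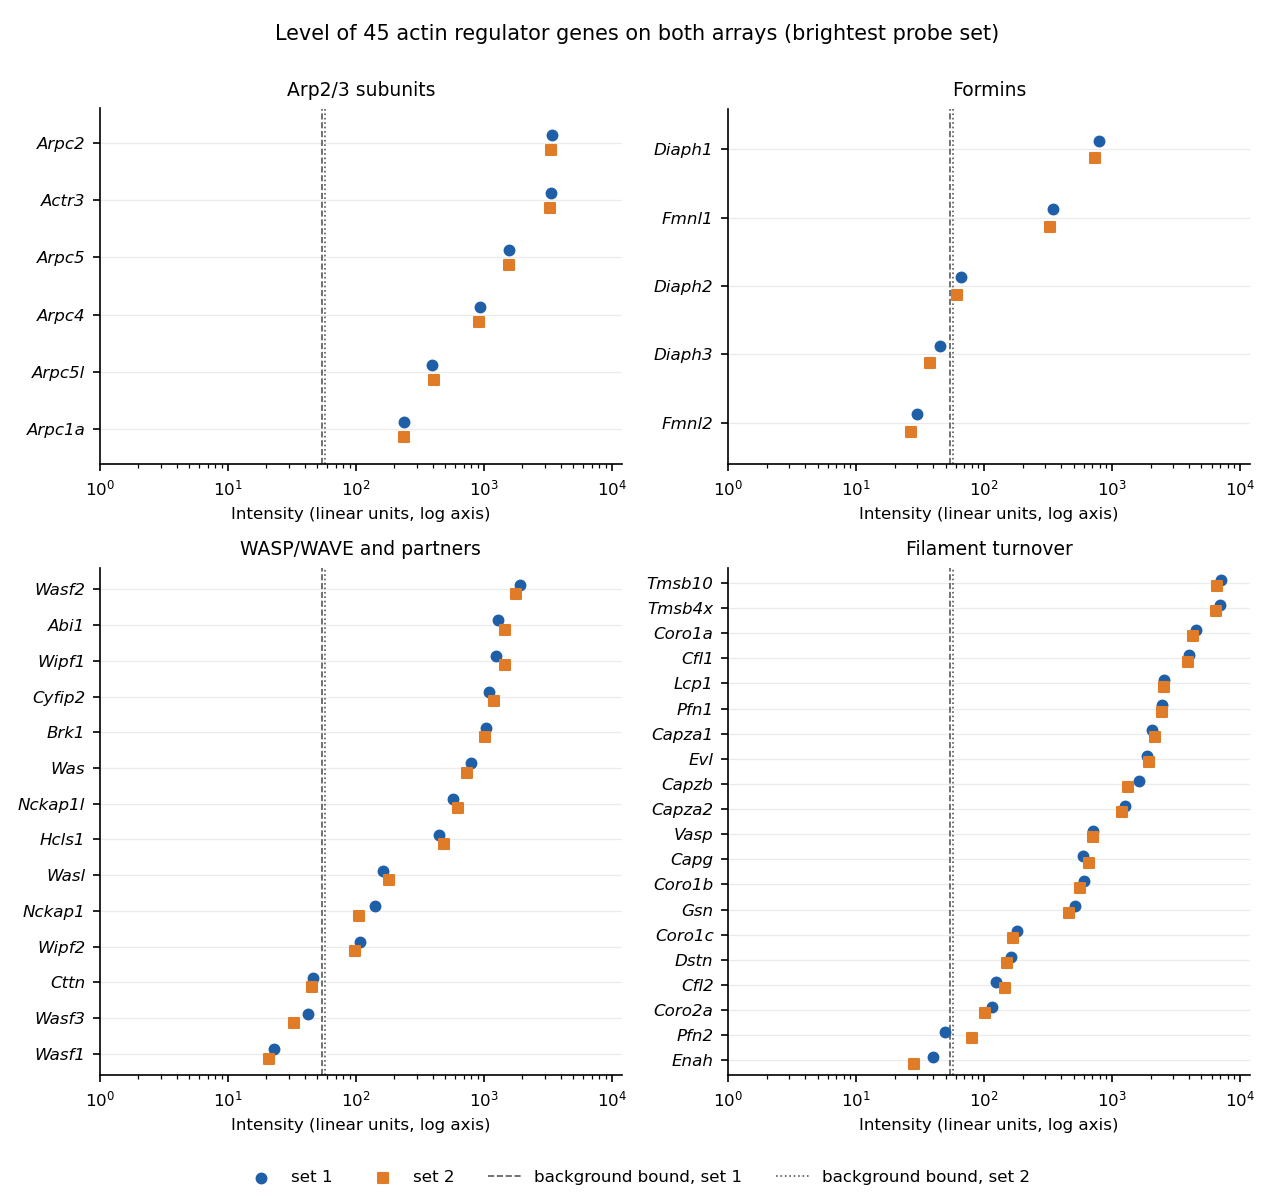
Intensity of the brightest probe set of each measured gene on set 1 (circles) and set 2 (squares), on a log axis, by group. The vertical lines are the background bounds of 54.44 on set 1 and 57.03 on set 2. Every Arp2/3 subunit lies to the right of both lines, while Diaph3, Fmnl2, Cttn, Wasf3, Wasf1 and Enah lie to their left, and Pfn2 has 1 array on each side.

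The sequence upstream of these genes is shown for 1 gene of each group, the one with the highest level among those with a single entry in the RefSeq promoter table, as an example of where their transcription starts. Each is the stretch of 150 bases before the annotated start in GRCm38.p6, on the strand of the gene. Capitals mark exact matches, on either strand, to a GC box (GGGCGG), an ETS core (CGGAAG) or a TATA box (TATAAA). The stretches are chr1:74236367-74236516 (+) for Arpc2, chr4:133130483-133130632 (+) for Wasf2, chr11:103170988-103171137 (+) for Fmnl1 and chrX:167209219-167209368 (-) for Tmsb4x.
Arpc2: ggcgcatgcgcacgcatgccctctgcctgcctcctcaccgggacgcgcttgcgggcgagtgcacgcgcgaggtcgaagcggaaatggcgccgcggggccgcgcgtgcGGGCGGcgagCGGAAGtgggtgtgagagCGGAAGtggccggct
Wasf2: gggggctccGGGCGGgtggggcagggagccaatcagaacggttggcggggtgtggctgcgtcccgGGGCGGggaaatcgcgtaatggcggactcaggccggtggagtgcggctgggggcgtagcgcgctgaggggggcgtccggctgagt
Fmnl1: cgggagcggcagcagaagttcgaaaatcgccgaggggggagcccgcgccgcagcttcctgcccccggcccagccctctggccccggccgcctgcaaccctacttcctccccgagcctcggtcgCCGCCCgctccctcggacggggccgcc
Tmsb4x: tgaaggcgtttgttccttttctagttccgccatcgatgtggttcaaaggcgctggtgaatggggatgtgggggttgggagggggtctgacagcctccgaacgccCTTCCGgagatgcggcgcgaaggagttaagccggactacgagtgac
The stretches of Arpc2 and Wasf2 hold GC boxes on the strand of the gene, and that of Fmnl1 holds one on the other strand. Arpc2 has 2 ETS cores close to its start, and Tmsb4x has 1 on the other strand. None of these 4 stretches holds a TATA box.

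Entries were found for 39 of the 45 measured genes, and Diaph1, Nckap1, Nckap1l, Coro1b, Arpc5l and Cttn had none. Over the full 250 bases before the start, a GC box was present in 25 of 44 promoters of members above background (56.8%) and in 4 of 6 promoters of members that were not. Of all 32851 promoters listed by RefSeq there 32.7% held one. The ETS core was present in 12 of 44 (27.3%) and 1 of 6, and in 13.6% of all promoters. The TATA box was present in 1 of 44 (2.27%) and 0 of 6, and in 12.4% of all. These are letter matches in a fixed window, several genes have more than 1 promoter, and no factor's binding was measured.

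All measured subunits of the Arp2/3 complex were above background on both arrays. Actr3, one of the actin-related proteins that form the seed of the new branch, read 3377 on set 1 and 3267 on set 2. Arpc2, a core subunit that contacts the mother filament, read 3410 and 3353. Arpc4, its partner in that core, read 942.5 and 924.5. For these 3 genes every probe set was above background, so the call does not rest on a choice among them.

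The remaining measured subunits exist as alternatives encoded by separate genes. Arpc5 read 1564 and 1575, while its paralogue Arpc5l read 393 and 408. Both genes of this pair were thus measured above background. Arpc1a, a subunit that binds activating proteins, read 238 and 240 on its single probe set, and its paralogue Arpc1b was not analysed here. Between the arrays 0 of the 12 Arp2/3 probe sets above background differed by more than 1.5-fold, near the share of all probe sets above background, 2.73%.

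Among the activators, the haematopoietic gene Was was above background. Its protein, which is lost or altered in Wiskott-Aldrich syndrome, links the receptor signal to Arp2/3, and its single probe set read 802 on set 1 and 744 on set 2. Wasl, which encodes the broadly expressed relative N-WASP, read 164 and 181 at its brightest probe set. Only 2 of the 4 Wasl probe sets passed on both arrays, and the others read 59.5 and 48.4, and 59.6 and 45.8, above the bound on set 1 alone. Wipf1, which encodes the WASP-interacting protein WIP that stabilises WASP in T cells, read 1245 and 1462. Its paralogue Wipf2 read 108 and 98.4, and both genes had all probe sets above background.

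The WAVE proteins activate Arp2/3 as part of a complex downstream of Rac. Of the 3 WAVE genes 1 was above background, Wasf2, which read 1908 on set 1 and 1775 on set 2. Wasf1, known mainly from brain, read 22.8 and 20.8, and Wasf3 read 42.3 and 32.6 at its brighter probe set. Both stayed under the bound on both arrays, so this set of paralogues had 1 gene above background and 2 that were not.

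The partners of WAVE in that complex were above background throughout, as far as they were measured. Abi1, an adaptor that holds the complex together, read 1303 and 1457 at its brightest probe set. Brk1, the smallest subunit, read 1039 and 1030.1. Cyfip2, the subunit that binds Rac and keeps WAVE inactive, read 1108 and 1207, and its paralogue Cyfip1 was not analysed here. Nckap1l, which encodes the haematopoietic scaffold subunit, read 578 and 624. Its broadly expressed paralogue Nckap1 was also above background, at 143 and 105 on a single probe set. Nckap1 had the widest gap between the arrays of all members above background.

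Hcls1 and Cttn encode related proteins that bind Arp2/3 and stabilise its branches, Hcls1 in haematopoietic cells and Cttn, or cortactin, in most other cells. Hcls1 read 449 on set 1 and 485 on set 2. Cttn read 46.3 and 45.7 at the brightest of 5 probe sets, and none of them passed. The pair thus gave 1 gene above background and 1 that was not.

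Formins were the group with the lowest share above background, 3 of 5, beside 47.1% of all named genes. With 5 genes this share is coarse, and it was not tested against the other groups. Diaph1, which encodes a formin that elongates unbranched filaments, read 786 on set 1 and 738 on set 2, and its 3 probe sets were all above background. Fmnl1, a formin of leukocytes, read 348 and 328 on a single probe set. Diaph2, a further gene of that family, read 65.4 and 61.1 at its brighter probe set, close to the bounds, and its other probe set read 38.3 and 37.1. Diaph3 at 45.3 and 37.9 and Fmnl2 at 30.0 and 26.6, each with 1 probe set, were not above background. The formin calls therefore comprise 2 genes well over the bounds, 1 close to them and 2 under them. Diaph2 was the 1 member above background whose level, 63.25 as the mean of the arrays, was no higher than that of the pancreatic gene Cela1 of the background list, at 78.9 and 109.

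In the turnover group both genes for small monomer-binding proteins gave very high intensities at their brightest probe set. Tmsb4x, which encodes the thymosin that holds actin monomers in reserve, read 6927 on set 1 and 6516 on set 2. Tmsb10, its close relative, read 7081 and 6589 at its brightest probe set. Further Tmsb10 probe sets read 6589 and 5745, and 4679 and 4925. The names of these bright Tmsb10 probe sets all end in _x_at or _s_at, and without such probe sets the call of Tmsb10 was lost. Which transcripts they read was not examined. The remaining Tmsb10 probe sets read 75.0 and 70.6, and 32.4 and 21.2, the last being the only one that ends in plain _at. Probe sets annotated to this 1 gene thus ranged from below background to among the highest of all members.

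Cofilins sever and disassemble filaments, and profilins load monomers with ATP and deliver them to growing ends. Cfl1, the cofilin of non-muscle cells, read 4012 on set 1 and 3942 on set 2. Its relatives were above background too, Dstn (destrin) at 162 and 152 and Cfl2, the muscle cofilin, at 124.5 and 146.5, where 2 of 3 Cfl2 probe sets passed. Pfn1 read 2436 and 2456 on its single probe set.

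Pfn2, the profilin known mainly from neurons, was not above background by the rule. Its probe sets gave different answers on the arrays. One read 49.9 on set 1 and 80.4 on set 2, and another read 56.8 on set 1 and 39.8 on set 2. Each array taken alone would have called Pfn2, but through a different probe set.

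Coronins bind filaments and act with cofilin and Arp2/3, and all 4 measured genes were above background. Coro1a, the coronin of leukocytes, whose loss leaves few T cells, read 4500.3 and 4281 at its brightest probe set. A further probe set read 3595 and 3529, and the last read 185 and 158. Coro1b read 600 on set 1 and 563 on set 2, Coro1c 181 and 167, and Coro2a 116 and 102. For Coro1c the call rested on 2 of 4 probe sets.

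Capping proteins close the fast-growing end of a filament. Both alpha subunits were above background, Capza1 at 2064 on set 1 and 2158 on set 2 and Capza2 at 1269 and 1200.3, as was the beta subunit gene Capzb at 1632 and 1343. Capg, a capper of the gelsolin family, read 594 and 657. Gsn, gelsolin, which severs and caps when calcium rises, read 517 and 458, with 5 of 6 probe sets above background. All 5 genes of this class passed.

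Proteins of the Ena/VASP family stay at the growing end and speed elongation, and this set of paralogues was split. Evl, a member found in lymphocytes, read 1881 on set 1 and 1956 on set 2, and Vasp read 713 and 716. Enah, known from neurons and epithelia, read 40.1 and 28.2 at the brightest of its 6 probe sets and was not above background. Lcp1, the leukocyte plastin that bundles filaments, read 2570 and 2564 on one probe set and 2395 and 2438 on the other.

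Sets of paralogues gave a summary across the groups. Of 17 sets 15 had at least 2 measured genes. In 9 of these all measured genes were above background, and in 6 some were and some were not. The 6 were the WAVE genes, Hcls1 and Cttn, the Diaph genes, Fmnl1 and Fmnl2, Pfn1 and Pfn2, and the Ena/VASP genes. No set was below background throughout. Of all named genes 47.1% were above background, and the same count was not made for sets of other paralogues.

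Probe sets of 1 gene often disagreed, which limits what the level of a gene means. Of the 45 genes 14 had 1 probe set and 31 had more. Among those 31 all probe sets were above background for 16 genes and none for 4, and for 11 genes the calls were mixed. Among probe sets above background the brightest exceeded the dimmest by more than 10-fold for 4 genes, Tmsb10 (93.9-fold), Coro1a (25.6-fold), Arpc2 (22.3-fold) and Evl (16.6-fold), of 25 with at least 2 such probe sets. Other genes had a probe set below background beside a bright one, as Arpc5 did with 1564 and 1575 on one and 11.9 and 9.7 on the other. For Abi1 the span was from 3.65 to 1380 as means of the arrays, and for Capzb from 6.55 to 1488. By contrast the 3 Actr3 probe sets spanned 1.25-fold, and those of Lcp1 and Capza2 1.06-fold and 1.08-fold. Which part of a transcript each probe set reads was not examined.

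**Figure D3:**
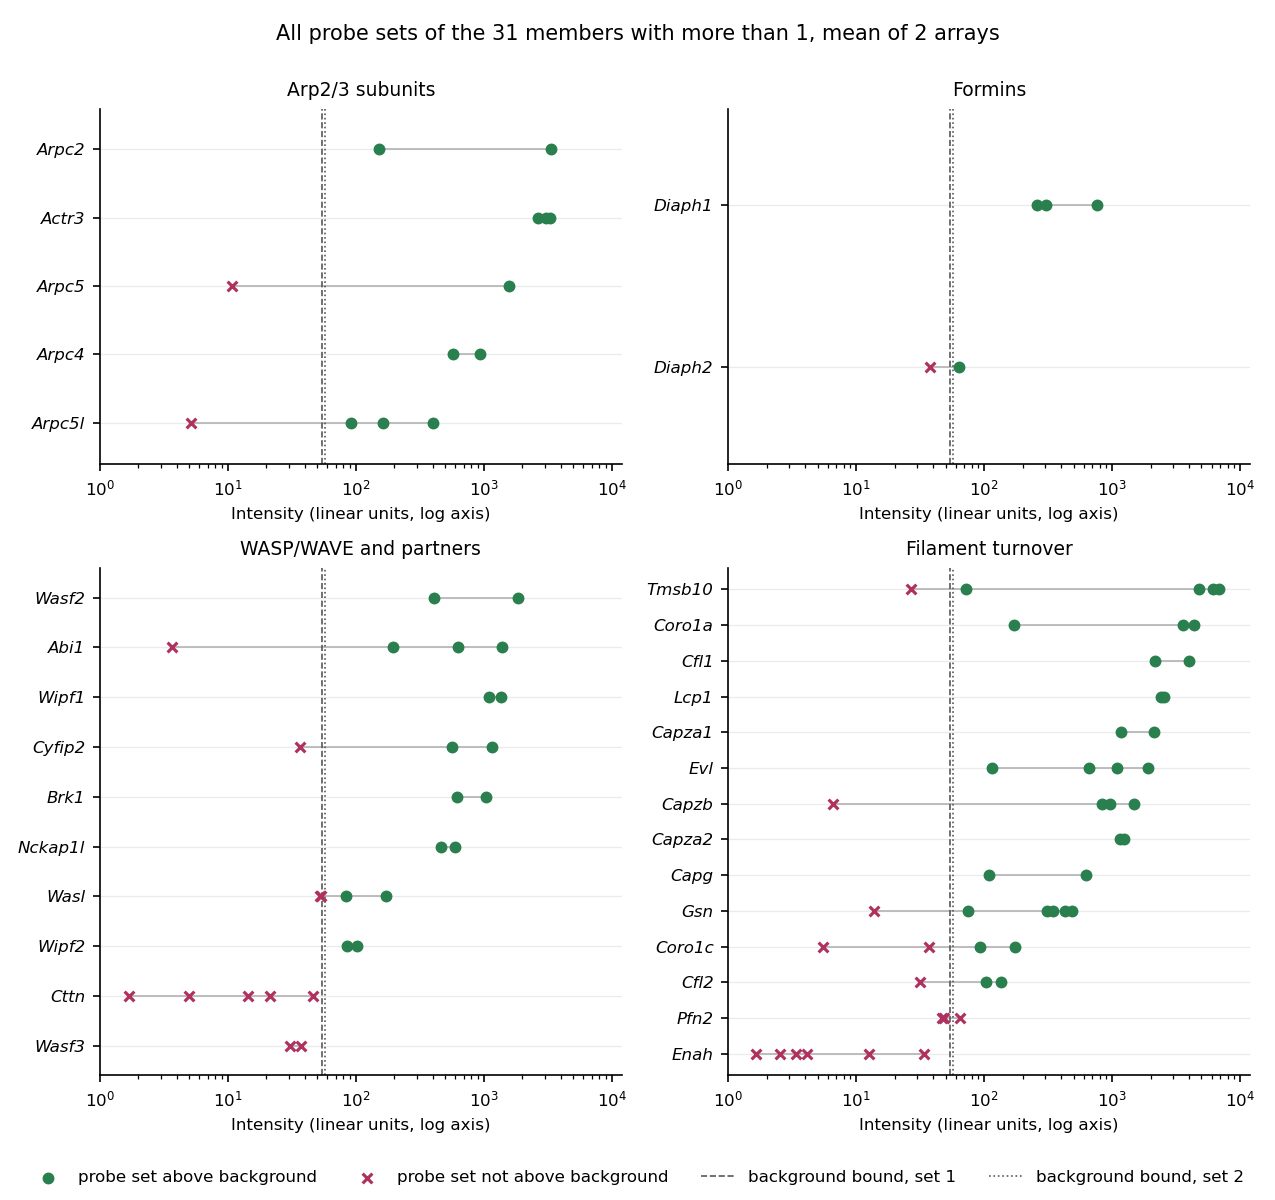
Mean intensity over the 2 arrays of every probe set of the 31 genes with more than 1, on a log axis; circles are above background on both arrays and crosses are not. Grey lines join the probe sets of a gene, and the vertical lines are the bounds of the 2 arrays. Tmsb10, Capzb, Abi1 and Arpc5 have probe sets on both sides of the bounds, while all probe sets of Cttn and Enah are crosses to their left.

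The arrays gave close values for the members. The log2 ratio of set 1 over set 2 was taken, and its median over all probe sets above background, -0.03, was subtracted. Of the 76 member probe sets above background 0 differed by more than 1.5-fold, where 2.73% of all probe sets above background did. The SD of the difference was 0.16 for the members and 0.24 for all named probe sets above background. It was 0.14 for Arp2/3, 0.18 for WASP and WAVE, 0.14 for formins and 0.15 for turnover. The spread depends on intensity, and many members are bright. Among probe sets with a mean from 512 to 2048 the SD was 0.13 for 27 member probe sets and 0.17 for all 2346. Above 2048 it was 0.10 for 16 and 0.12 for all 480.

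The widest gaps were seen at low intensity. Nckap1, at 143 on set 1 and 105 on set 2, had a log2 difference of 0.46. A Cfl2 probe set at 117.6 and 87.7 had 0.45, and an Arpc5l probe set at 184 and 145 had 0.38. In the other direction a Wasl probe set at 73.3 and 95 had -0.35. For both Cfl2 and Arpc5l a second probe set of the gene gave a difference of the opposite sign, so these gaps belong to single probe sets.

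After centring, 48 of 76 member probe sets (63.2%) were higher on set 1, including 28 of 39 in the turnover group, beside 50.3% of all named probe sets above background. The median difference was 0.02 for Arp2/3, -0.02 for WASP and WAVE, 0.11 for formins and 0.06 for turnover. The direction varied with intensity. Above a mean of 2048, 12 of 16 member probe sets were higher on set 1, with a median of 0.05, and 75.8% of all probe sets were, with a median of 0.09. Below a mean of 128, 10 of 13 member probe sets were higher on set 1, with a median of 0.12, while 45.6% of all probe sets were, with a median of -0.03. No test was made of these counts.

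**Figure D4:**
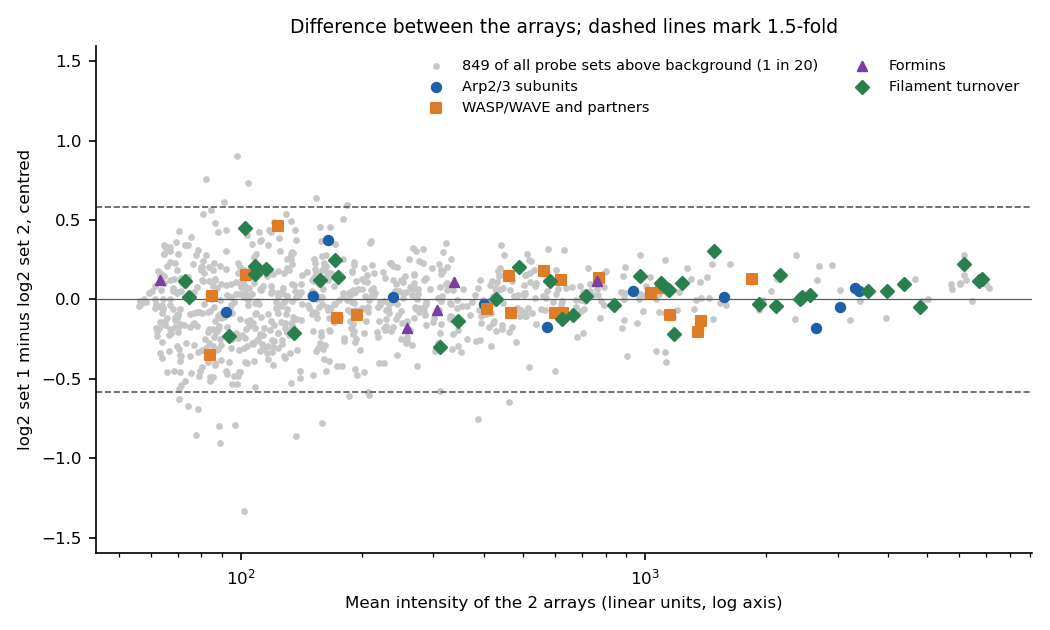
Centred log2 difference, set 1 minus set 2, against mean intensity (log axis) for the 76 member probe sets above background, coloured by group, over 1 in 20 of all probe sets above background (grey). Dashed lines mark 1.5-fold. All member probe sets lie between the dashed lines, with the widest gaps below an intensity of 200.

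Genes that act on this machinery were read from lists that hold no members. Rac2, the Rac of blood cells that acts on the WAVE complex, read 3465 on set 1 and 3220 on set 2. Cdc42, which activates WASP, read 2572 and 2454. Both genes were above background at every probe set, 2 for Rac2 and 4 for Cdc42.

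Genes listed as adaptors of WASP and WAVE proteins were above background in 10 of 12 cases, beside 47.1% of all named genes. Fyb, which encodes the adaptor ADAP, read 1945 and 1967, Skap1, its binding partner, 813 and 716, and Fnbp1, a membrane-bending protein, 533 and 535. Baiap2 and Pstpip2 were not above background. Of the kinases and phosphatases listed as acting on cofilin, directly or through other kinases, 7 of 11 passed. Rock1, a kinase that activates the LIM kinases, read 1046 and 1093, Ssh2, a phosphatase that reactivates cofilin, 963 and 968, and Pak2, a kinase downstream of Rac and Cdc42, 637 and 591. Limk1, a kinase that inactivates cofilin, read 53.6 and 48.3 and was not above background, nor were Pak3 and Tesk1. The other LIM kinase gene, Limk2, was above background at 177 and 202, through 2 of its 3 probe sets.

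Of nucleators and their regulators outside the list 3 of 16 were above background, a share under the 47.1% of all named genes. These were the formin gene Inf2 at 197 on set 1 and 193 on set 2, Jmy at 179.5 and 180.4, and Whamm at 103 and 82.9, both of which encode Arp2/3 activators. Arpin, an Arp2/3 inhibitor, Cobl, a nucleator known mainly from neurons, and the formin gene Daam1 were among the 13 that did not pass. Actin genes and further actin-binding proteins passed in 16 of 25 cases (64.0%), a share over that of all named genes. The cytoplasmic actin genes Actb and Actg1 read 6394 and 6014, and 5870 and 5542, and the tropomyosin gene Tpm3 2386 and 2424. Of 4 muscle actin genes 1 passed, a share under that of all named genes. It was Acta2 of smooth muscle at 133 and 178, while Acta1, Actc1 and Actg2 did not pass. Of the 38 members above background 5 had a level no higher than that of Acta2: Wipf2, Nckap1, Diaph2, Cfl2 and Coro2a.

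The T cell label was checked against defining markers, of which 6 of 6 measured genes were above background, from Zap70 at 855 on set 1 and 957 on set 2 to Cd3d at 4883 and 4460. Markers of other cells were above background in part, beside 47.1% of all named genes. B cell genes passed in 4 of 4 cases, with Ms4a1 at 390 and 365, Cd79a at 118.4 and 98.4 and Ighm at 2581 and 2163 (5 of its 11 probe sets passed). Macrophage and dendritic cell genes passed in 1 of 6 (Csf1r) and fibroblast and endothelial genes in 1 of 4 (Pecam1), shares under that of all named genes. Platelet genes passed in 1 of 2, near that share. The gene was Itga2b, which read 67.2 on set 1, close to the bound, and 93.6 on set 2. Lists this short give coarse shares. The NK cell gene Ncr1, 2 granulocyte genes and 3 muscle genes did not pass. Summed over the list, levels on set 1 and set 2 were 14738 and 14035 for T cell genes, 3255 and 2791 for B cell genes and 198 and 366 for macrophage and dendritic cell genes. The last sum comes largely from genes that did not pass, and Csf1r read 57.3 on set 1, close to the bound, and 146.7 on set 2. The part of cells other than T cells in the levels of Was, Hcls1, Nckap1l, Coro1a and Lcp1, which blood cells of many kinds use, was not tested. In RNA from a population of cells, fewer expressing cells and less RNA per cell cannot be told apart.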

How the data were processed

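The series holds 2 Affymetrix mouse 430 2.0 arrays of 1 group. The deposited values are probe set intensity values on a linear scale, from 0 to 8860.2, read as linear from the values; the sources used here do not give the authors' background correction, probe summary or scaling, and detection calls were not used. The medians were 36.4 on set 1 and 37.9 on set 2. Of 45101 probe sets 64 manufacturer's controls were left out. Gene names came from GEO's platform annotation: 34945 probe sets had 1 symbol, 932 had several and 9160 were unlisted. Entrez identifiers matched the GRCm38.p6 RefSeq table for 34754 and changed 0 symbols.

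The members, gene lists and thresholds were chosen with earlier results of these data known. All members could be named; from each list of other pathway genes up to 3 above background with the highest mean and up to 3 not above background, in alphabetical order; and any cell type marker. Cela1 and Limk2 were named after their values were seen. With 2 arrays of 1 group no test was made, and their number limits the precision. Intensities under 1 were set to 1 before log2. Functions were tested on simulated data. Python 3.11.15, numpy 2.4.6, pandas 2.3.3 and matplotlib 3.10.9 were used. A planned second off-tissue list from earlier work was not used here, and a list written after the data were seen replaced it. One further list of genes was read and is not reported here.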

Additional observations from a re-analysis of the deposited data

How the results depend on the processing

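Calls were recomputed under 8 alternatives. Of the 45 members 34 stayed above background in every one that measured them and 5 in none. Pfn2 passed with the bound at the 90th percentile, at the median of all probe sets, and on either array alone. Cttn passed with the bound at the median. Diaph2 was lost with the bound at the 99th percentile, with a second off-tissue list (added after the data were seen) and with the median over probe sets, each of which left 2 of 5 formins. Without probe sets ending in _x_at, _s_at or _a_at Abi1, Capzb and Tmsb10 were lost and Arpc1a, Nckap1, Diaph3 and Capg were not measured, which left 32 of 41. Of all named genes 43.0% passed without those probe sets. The member count ranged from 37 to 40 over the other alternatives, where 39.3% to 55.4% of all named genes passed. It was 39 on either array alone, beside 49.5% of all named genes. The group counts moved by no more than 1.5 times, and other nucleators went to 5 with the bound at the median.

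Levels moved more. With the median over probe sets the median level was 772 for Arp2/3, 439 for WASP and WAVE, 50.5 for formins, 797 for turnover and 467 for all members. Without the probe sets named above it was 1569.7, 467, 201, 488 and 488 in that order. For Arp2/3 and formins this change came from the loss of Arpc1a and Diaph3, and the levels of their other genes stayed the same. Leaving out an array gave 1249.8 to 1253 for Arp2/3, 513 to 555 for WASP and WAVE, 61.1 to 65.4 for formins, 958 to 991 for turnover and 600 to 657 for all members.

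Members past 1.5-fold between the arrays were 0 after filtering, without centring and after quantile normalization. With all 108 probe sets and a floor of 1 they were 11 (1 of Arp2/3, 4 of WASP and WAVE, 6 of turnover), where 29.2% of all probe sets were. With a floor of 16 they were 3 (1 of WASP and WAVE, 2 of turnover), where 11.2% were. The difference cannot be recomputed with an array left out. No paired analysis was possible because there was 1 group. Low signal limits the calls of Diaph2, Pfn2 and Cttn.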
